A study of Rattus norvegicus with 6 samples.

Results

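The 3p arms of the let-7 and miR-98 hairpins were followed in small RNA libraries of PC12 cells, a rat adrenal pheochromocytoma line used as a model of neuron-like cells. Members were all rows of the deposited count table whose name begins with rno-let-7 or rno-miR-98 and ends in -3p. This rule gave 12 of 1289 rows, of which 584 are known rat miRNA arms and 705 are predicted miRNAs. The table covers 3 EN libraries and 3 EC libraries, all of the PC12 line, and the labels spell out neither group name, nor any treatment, dose or time. The series title concerns endothelial cell exosomes engineered with Netrin-1, a secreted guidance protein for growing axons, and peripheral nerve repair. No label states that replicates were separate cultures, so p-values measure only the spread between these libraries, which may be technical.

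A let-7 hairpin is cut into a duplex of a 5p and a 3p strand. Argonaute proteins usually keep the 5p strand, the guide, which pairs with target mRNAs through its seed at bases 2 to 8, and the 3p strand, the passenger, is mostly degraded. Mature let-7 rises as animal cells differentiate and targets growth genes such as Ras and Hmga2, while Lin28 blocks the maturation of many let-7 precursors. Both strands come from the same precursor, so the level of a 3p arm relative to its 5p arm need not follow transcription. It may reflect strand retention, strand stability or how reads were assigned to rows, and which of these was not tested.

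The mature sequences are shown because the 3p arms do not share the single seed of the 5p arms, and because a pair of them is one sequence. RefSeq (GRCr8 build) held the mature sequence of 11 of the 12 members, and let-7c-1-3p is named only. Each is written 5′ to 3′ with the seed in capitals.
let-7i-3p: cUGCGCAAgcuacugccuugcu
let-7g-3p: cUGUACAGgccacugccuugc
let-7d-3p: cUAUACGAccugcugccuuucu
let-7e-3p: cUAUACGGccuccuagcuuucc
let-7f-1-3p: cUAUACAAucuauugccuucc
let-7a-1-3p: cUAUACAAucuacugucuuucc
let-7c-2-3p: cUAUACAAucuacugucuuucc
let-7i-5p: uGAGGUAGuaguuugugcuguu
let-7d-5p: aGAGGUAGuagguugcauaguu
The 11 sequences carried 6 different seeds, whereas all 9 of the family's 5p arms carried GAGGUAG. The seed UAUACAA was shared by let-7a-1-3p, let-7b-3p, let-7c-2-3p, let-7f-1-3p and miR-98-3p, and UGUACAG by let-7a-2-3p and let-7g-3p. The seeds of let-7d-3p, let-7e-3p, let-7f-2-3p and let-7i-3p each occurred in 1 member. All 11 of the 3p arms began with C, while 8 of the 9 guide arms began with U and let-7d-5p began with A. Argonaute proteins are known to favour U or A at the first base. Among known rows with a sequence, let-7i-3p stood 5 single-base edits from its nearest relative, let-7g-3p, and 7 from the nearest outside the family. Rows without a sequence, the predicted miRNAs and let-7c-1-3p among them, were not compared.

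In the let-7i hairpin, both arms are in capitals and the loop and flanks are in lower case. It is shown because its 3p arm is the only member called between the groups in the main edgeR test, with limits given below.
let-7i hairpin: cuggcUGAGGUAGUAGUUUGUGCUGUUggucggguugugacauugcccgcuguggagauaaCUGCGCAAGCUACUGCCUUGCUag
RefSeq places no other miRNA gene within 10 kb of this hairpin, and none overlaps it.

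The libraries held 4521694 to 5371351 miRNA counts in EN and 6153582 to 6554639 in EC. These counts made up 25.0 to 26.9 percent of the library total implied by the deposited RPM in EN and 30.9 to 32.6 percent in EC, and the part of this difference in the results was not tested. Levels below are CPM, each count taken relative to the miRNA counts of its library after TMM correction. With the implied totals in place of miRNA counts, the median log2 fold change of all tested rows moved from 0.02 to -0.30. The PC12 label was checked against 8 neuronal and neuroendocrine miRNAs, of which 7 were in the table and had counts. Their summed level was 11866 to 14647 CPM in EN and 11064 to 12417 CPM in EC. It was carried mostly by miR-218a-5p, at 8458 to 12365 CPM over the libraries, with miR-9a-5p and miR-7a-5p next. The others, miR-375-3p, miR-124-3p, miR-132-3p and miR-212-3p, stood at 7.23 CPM or less in every library. The 3 blood cell miRNAs miR-451-5p, miR-144-3p and miR-223-3p summed to 20.1 to 31.3 CPM in EN and 5.25 to 9.93 CPM in EC, with miR-144-3p at 0 in 2 EN and all 3 EC libraries. The 2 endothelial miRNAs, both in the table, summed to 1086 to 1229 CPM in EN and 1064 to 1144 CPM in EC. Most of this was miR-126a-3p, which overlapped between the groups, at 1054, 1054 and 1200 CPM in EN against 1078, 1007 and 1062 CPM in EC. The rarer miR-126a-5p had 31.8, 39.3 and 28.5 CPM in EN against 66.3, 56.8 and 57.7 CPM in EC, lower in every EN library than in any EC library. The liver miRNA miR-122-5p stood at 8.23 to 14.4 CPM in EN and 5.96 to 9.74 CPM in EC. The 3 muscle miRNAs summed to 1.75 to 2.41 CPM in EN and 1.76 to 30.3 CPM in EC, where EC replicate 1 had 28.9 CPM of miR-206-3p and miR-1-3p was at 0 in all 3 EC libraries and in 2 EN libraries. Their part in the results was not tested.

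The passenger arms spanned more than 3 orders of magnitude, and let-7d-3p alone supplied most of them. Over the 6 libraries, let-7d-3p averaged 7286 CPM, 5887 times the level of the rarest member, let-7b-3p, at 1.24 CPM. It made up 89.7 ± 0.24 percent of all 3p counts of the family in EN and 89.0 ± 0.83 percent in EC (SD, n = 3 each). After it came the summed pair let-7a-1-3p and let-7c-2-3p at 322 CPM, let-7e-3p at 254 CPM and let-7i-3p at 219 CPM. The ranges of these 3 over the libraries overlapped, so their order is not resolved, while let-7d-3p lay above all of them in every library. Next were let-7f-1-3p at 28.6 CPM, let-7a-2-3p at 23.4 CPM and let-7c-1-3p at 12.4 CPM. The first 2 of these overlapped, and let-7c-1-3p lay below both. At the bottom, let-7g-3p at 5.78 CPM, let-7f-2-3p at 3.42 CPM, miR-98-3p at 2.39 CPM and let-7b-3p overlapped each with the next. The arms are 21 to 22 bases long and a read covers a whole arm, so levels were not divided by length. Ligation of adapters differs between small RNA sequences, so levels of different arms compare only roughly.

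**Figure D1:**
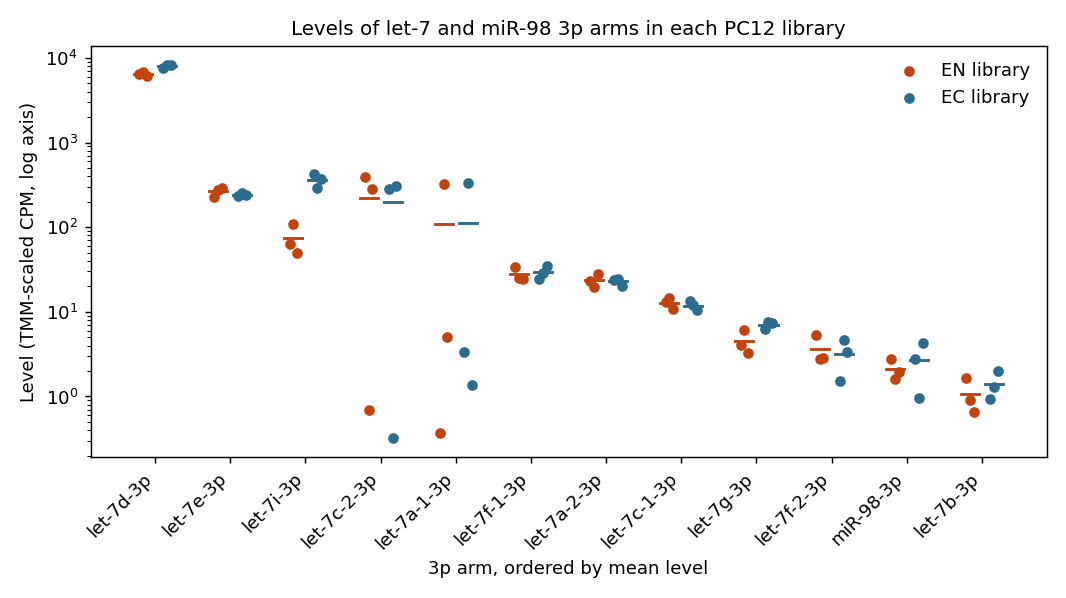
Level of each 3p arm in TMM-scaled CPM (log axis) in 3 EN and 3 EC libraries (points) with group means (lines), ordered by mean level. The let-7i-3p points of EN lie below those of EC, and let-7a-1-3p and let-7c-2-3p each jump between near 0 and about 300 CPM within both groups.

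The family's passenger arms did not move together: let-7i-3p fell 4.93-fold in EN, and no other member passed the test. Let-7i-3p (rno-let-7i-3p in the files) had 338, 483 and 224 counts in the EN libraries, against 2788, 1827 and 2438 counts in the EC libraries. All 3 EN counts were below all 3 EC counts, and so were the scaled levels, at 62.5, 110.4 and 49.1 CPM in EN against 431, 292 and 372 CPM in EC. The means were 74.0 ± 32.2 CPM in EN and 365 ± 69.7 CPM in EC (SD, n = 3 each). The log2 fold change of EN over EC was -2.30 (SE 0.33), with adjusted p = 0.0177 by the edgeR quasi-likelihood test, Benjamini-Hochberg adjusted over the 628 rows tested. Among these rows it was the 3rd lowest log2 fold change, after miR-879-5p and miR-466b-4-3p, both of which averaged about 6 CPM in EC. It was the 1 called member of 11 tested, where 3.98 percent of all rows were called in either direction and 1.91 percent were called lower. The call did not hold when 1 library was left out in 3 of 6 fits, with edgeR's adjusted p of 0.0545 without EC replicate 1, 0.0630 without EC replicate 3 and 0.0678 without EN replicate 3. The log2 fold change in the 6 fits lay between -2.67 and -2.08.

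The guide strand of the same hairpin, let-7i-5p, differed far less. It stood at 25225, 26388 and 26475 CPM in EN, against 28272, 30148 and 28164 CPM in EC. The EN values again lay below the EC values, but the log2 fold change was only -0.15 (SE 0.07), with adjusted p = 0.269 by edgeR. The 3p arm made up 0.247, 0.417 and 0.185 percent of the hairpin's reads in the EN libraries, against 1.50, 0.958 and 1.30 percent in the EC libraries. The highest EN share had a 95% exact Clopper-Pearson interval of 0.380 to 0.456 percent and the lowest EC share one of 0.915 to 1.00 percent, where such intervals cover counting error only. The mean share was 0.283 ± 0.120 percent in EN and 1.25 ± 0.274 percent in EC (SD, n = 3 each), a difference of -0.97 percentage points with p = 0.1 in a two-sided exact permutation test, which cannot go lower with 3 libraries a group.

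The ratio of the arms needs no scaling between libraries and was tested over all 123 hairpins with a mean of at least 20 counts in both arms. The log2 ratio of let-7i-5p to let-7i-3p was 8.65, 7.90 and 9.07 in EN, against 6.04, 6.69 and 6.24 in EC. The EN ratios were all above the EC ratios, by 2.22 on average (SE 0.35), with adjusted p = 0.0215 by limma, Benjamini-Hochberg adjusted over these hairpins. Of all hairpins, 4.88 percent were called, and let-7i was the 1 called of the 7 let-7 hairpins or hairpin groups tested. Leaving out EN replicate 1, EN replicate 3, EC replicate 1 or EC replicate 3 gave adjusted p from limma of 0.115, 0.112, 0.119 and 0.109, with differences between 1.95 and 2.54 over all 6 such fits.

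**Figure D2:**
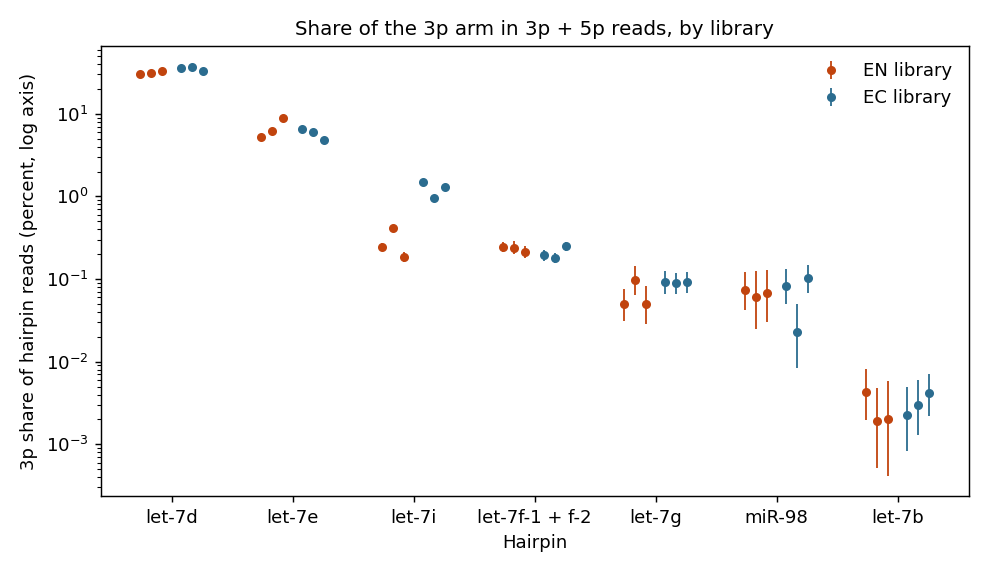
Percentage of 3p reads among 3p and 5p reads (log axis) for each hairpin with its own 5p row, and for let-7f-1 and let-7f-2, which share one. Points are libraries, 3 EN left of 3 EC, with 95% exact Clopper-Pearson intervals, and the let-7i shares of EN, 0.185 to 0.417 percent, lie below those of EC, 0.958 to 1.50 percent.

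Let-7d-3p, the dominant passenger arm, was lower in EN by a small margin that did not pass over all rows. This row, rno-let-7d-3p, had 34932, 30043 and 28288 counts in EN, against 49061, 52263 and 54123 counts in EC. Scaled, this was 6464, 6869 and 6197 CPM in EN against 7577, 8345 and 8266 CPM in EC, with no overlap of the groups. The log2 fold change was -0.31 (SE 0.09), with adjusted p = 0.0890 by edgeR. With library totals implied by RPM it was -0.64 and passed edgeR's test, with adjusted p = 0.00904, where the median of all rows was -0.30. Let-7d-5p stood at 14199 ± 1439 CPM in EN and 14761 ± 1634 CPM in EC (SD, n = 3 each), a log2 fold change of -0.06 with adjusted p = 0.815 by edgeR.

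The hairpin of let-7d is the one in which the 3p strand comes nearest to the 5p strand. Its 3p share was 30.0, 31.4 and 33.1 percent in the EN libraries, against 35.8, 37.3 and 33.2 percent in the EC libraries. The highest EN and the lowest EC share lie close together and their 95% exact Clopper-Pearson intervals overlap, at 32.8 to 33.4 and 33.0 to 33.4 percent. The mean difference was -3.91 points, with p = 0.1 in the two-sided exact permutation test, its lower limit. By limma the log2 arm ratio differed by 0.25 (SE 0.17), with adjusted p = 0.415.

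Let-7g-3p also had no overlap of the groups, but at a level that limits the comparison. It had 22, 27 and 15 counts in EN, against 41, 47 and 48 counts in EC. Scaled, this was 4.07, 6.17 and 3.29 CPM in EN against 6.33, 7.51 and 7.33 CPM in EC. The log2 fold change was -0.65 (SE 0.29), with adjusted p = 0.248 by edgeR. With library totals implied by RPM it was -0.98, with edgeR's adjusted p = 0.0492, where the median of all rows was -0.30. Its share of hairpin reads was 0.0498 to 0.0982 percent in EN and 0.0895 to 0.0928 percent in EC, so the shares overlapped. In all, 3 of 11 tested members, let-7i-3p, let-7d-3p and let-7g-3p, had no overlap of CPM, all lower in EN. Over all rows, 29.6 percent had no overlap in either direction and 14.6 percent had none and were lower.

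Let-7e-3p (rno-let-7e-3p), from the hairpin clustered with miR-99b and miR-125a, stood at 229, 274 and 294 CPM in EN, against 236, 251 and 241 CPM in EC. The groups overlapped, and its log2 fold change was 0.13 (SE 0.14) with adjusted p = 0.649 by edgeR. Its share of hairpin reads spread widely, at 5.30, 6.19 and 8.81 percent in EN against 6.63, 6.03 and 4.80 percent in EC. Only EN replicate 3 lay above all EC libraries, and without it the mean difference turned from 0.95 to -0.075 percentage points. The difference had p = 0.5 in the two-sided exact permutation test. These shares leave out miR-3596c, from the gene opposite let-7e, which had 3694 to 9382 counts over the libraries. With it added to the 5p row, the log2 arm ratio of EN minus EC was -0.22 (SE 0.27), against -0.21 (SE 0.27) without it.

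Let-7f-1-3p (rno-let-7f-1-3p), from the cluster that also holds let-7a-1 and let-7d, had 184, 109 and 112 counts in EN against 157, 181 and 229 in EC. Let-7a-2-3p (rno-let-7a-2-3p), from a hairpin near miR-100, had 126, 87 and 129 counts in EN against 154, 155 and 134 in EC. Let-7c-1-3p, from a hairpin near miR-99a, had 71, 64 and 49 counts in EN against 86, 75 and 68 in EC. After scaling, the groups of all 3 overlapped, with log2 fold changes of -0.08, 0.05 and 0.11 (SE 0.20, 0.18 and 0.21) and edgeR's adjusted p from 0.796 to 0.881. Let-7f-2-3p had 12 to 29 counts in EN and 10 to 29 in EC, and miR-98-3p, from the neighbouring hairpin, had 7 to 15 in EN and 6 to 28 in EC. Neither passed, with log2 fold changes of 0.21 (SE 0.47) and -0.32 (SE 0.55). Let-7b-3p had 9, 4 and 3 counts in EN against 6, 8 and 13 in EC, and was left out by the filter on low counts. For let-7b the imbalance of the strands was extreme, since its 5p arm stood at 40036 ± 7898 CPM in EN and 43655 ± 3600 CPM in EC (SD, n = 3 each), while its 3p share was at most 0.00425 percent in any library.

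Let-7a-1-3p and let-7c-2-3p are identical over all 22 bases, as printed above, and their rows cannot be read one by one. The rno-let-7a-1-3p row had 2, 1421 and 23 counts in EN, against 22, 2086 and 9 counts in EC. The rno-let-7c-2-3p row had 2109, 3 and 1283 counts in EN, against 1821, 2 and 2017 counts in EC. In every library 98.2 percent or more of the pair's counts stood in a single row, the let-7a-1-3p row in EN replicate 2 and EC replicate 2 and the let-7c-2-3p row in the other libraries. No other member had a mature sequence identical to, or contained in, that of another known row with a sequence. Summed, the pair had 2111, 1424 and 1306 counts in EN, against 1843, 2088 and 2026 in EC. The summed level was 334 ± 52.6 CPM in EN and 309 ± 24.4 CPM in EC (SD, n = 3 each), with overlapping groups. The log2 fold change of the sum was 0.11 (SE 0.15), with adjusted p = 0.702 by edgeR over 627 rows. Without EN replicate 1 it was -0.02, and with library totals implied by RPM it was -0.21, so its direction is not settled.

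**Figure D3:**
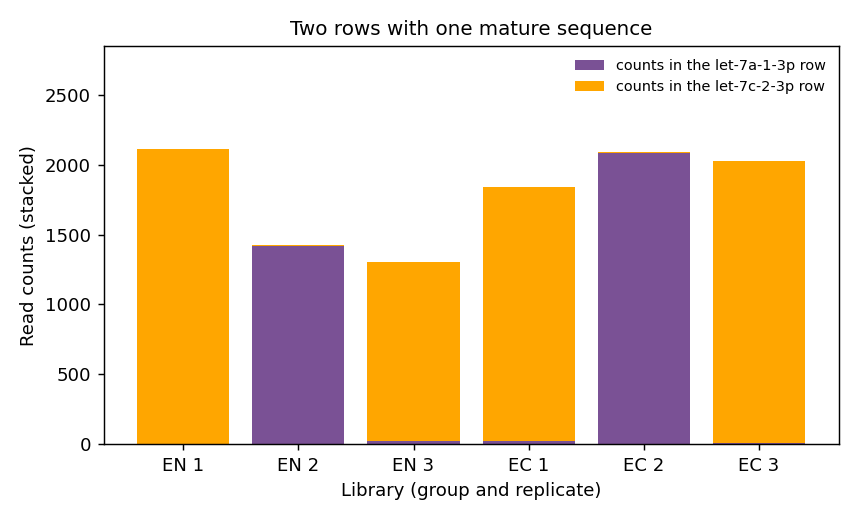
Read counts in the let-7a-1-3p and let-7c-2-3p rows, stacked, for 3 EN and 3 EC libraries. Nearly all counts of the pair fall in 1 of the 2 rows in each library, while the totals stay between 1306 and 2111 counts.

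Of the 5p rows of this pair, let-7a-5p also switched, but with a row of a different sequence, miR-3596a. Let-7c-5p did not switch, at 210142 to 368262 counts over the libraries. Let-7a-5p had 142, 75682 and 626 counts in EN, against 94453, 129854 and 133693 in EC. MiR-3596a had 99668, 149 and 68271 counts in EN, against 69, 115 and 1061 in EC. Its gene lies on the strand opposite let-7a-2, where its mature RNA overlaps let-7a-5p and not the 3p arm. The mature sequence of miR-3596a is the exact reverse complement of let-7a-5p. The libraries that switched differ between the arms, EN replicates 1 and 3 for the 5p rows and replicate 2 of both groups for the 3p rows. A 3p share of let-7a as deposited, 47.4 percent in EN replicate 1 and 0.107 percent in EC replicate 3, is therefore not interpretable. With the let-7a and let-7c hairpins and miR-3596a pooled, the 3p share was 0.618, 0.496 and 0.529 percent in EN, against 0.505, 0.483 and 0.441 percent in EC. The pooled groups overlapped, with p = 0.2 in the two-sided exact permutation test.

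MiR-3596b, miR-3596c and miR-3596d likewise come from genes opposite let-7d, let-7e and let-7f-1, and each mature RNA overlaps the 5p arm. Over the 11 members with a sequence, no mature RNA of another gene overlapped the 3p arm itself. For let-7f-1 and let-7f-2, which share let-7f-5p, the 3p share was 0.244, 0.239 and 0.213 percent in EN, against 0.194, 0.180 and 0.248 percent in EC. The groups overlapped, with p = 0.4 in the two-sided exact permutation test. In the miR-98 hairpin it was 0.0611 to 0.0746 percent in EN and 0.0229 to 0.103 percent in EC. Across the hairpins with a 5p row of their own, the share thus ran from at most 0.00425 percent in let-7b to 37.3 percent in let-7d, and the 3p arm stayed below the 5p arm in every library, as the name passenger implies.

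**Figure D4:**
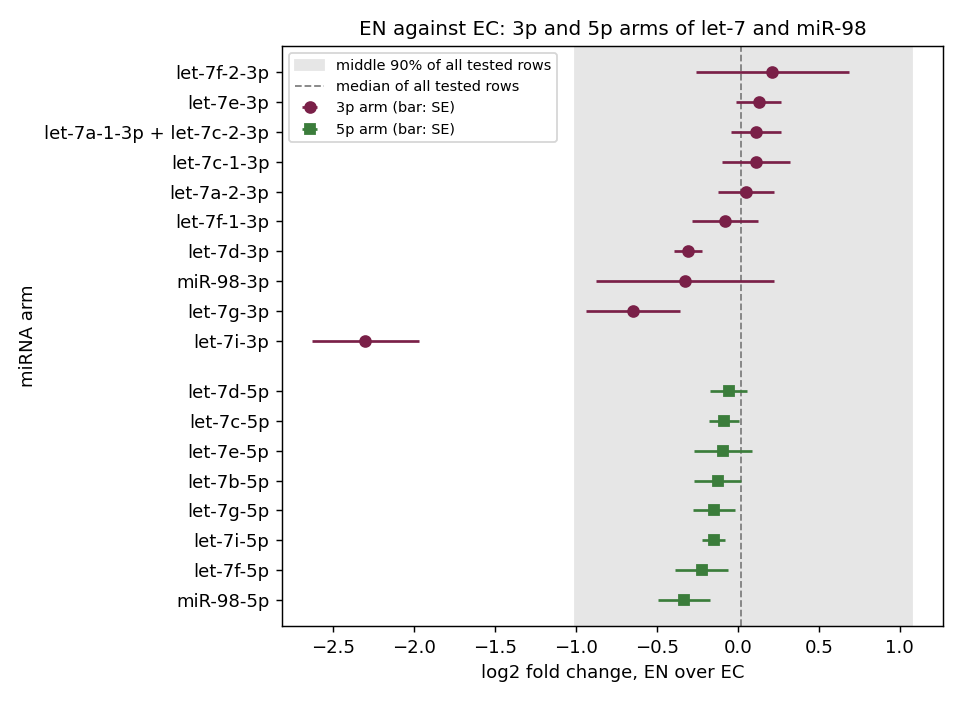
Log2 fold change of EN over EC with its SE for the tested 3p arms (circles, let-7a-1-3p and let-7c-2-3p summed) and for the 5p arms (squares, without let-7a-5p, whose row switched with miR-3596a). The grey band holds the middle 90 percent of all tested rows, from -1.0 to 1.08, and let-7i-3p at -2.30 lies outside it while the other arms lie within.

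As a group, the 11 tested 3p arms had 0 calls higher and 1 lower in EN, with 6 negative and 5 positive log2 fold changes and a median of -0.03, against 0.02 for all 628 rows. DESeq2 and limma-voom also called let-7i-3p and no other member, where DESeq2 called 11.3 percent of the 622 rows to which it gave an adjusted p and limma-voom 2.55 percent of all 628. At an unadjusted p under 0.05, which 21.7 percent of all rows reached, edgeR added let-7d-3p. The 9 guide arms of the family, all tested, had 0 calls in either direction by edgeR, 0 by DESeq2 and 0 at an unadjusted p under 0.05. Their median log2 fold change was -0.15, and all 9 were negative. Let-7a-5p, the lowest of them at -1.67 (SE 2.37), is the row that switched with miR-3596a. Among the less abundant arms of other known hairpins, which are the nearest comparison to a passenger strand, 106 were tested. The list holds only hairpins whose 5p and 3p rows carry the same name, which leaves out rows such as miR-125b-1-3p. Of the 106, 0 were called higher and 2 lower, and the median was -0.09. Their log2 fold changes ran from -1.36 to 1.18, so let-7i-3p lay below all 106. MiR-466b-4-3p, whose log2 fold change was lower than that of let-7i-3p, was not among them. The members with the seed UAUACAA that were tested, 4 in number, ranged from -0.32 to 0.19, a span that includes the switching pair. The other 3p arm with the seed of let-7g-3p, let-7a-2-3p, stood at 0.05, against -0.65 for let-7g-3p.

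The miRNAs that share clusters with let-7 hairpins, miR-99a, miR-99b, miR-100, miR-125a and miR-125b, gave 11 tested rows and 0 calls in either direction by edgeR. At an unadjusted p under 0.05 there were 3 rows, miR-125b-1-3p and both arms of miR-99b, against 21.7 percent of all rows. DESeq2 called the same 3 rows, against 11.3 percent of the rows to which it gave an adjusted p, and limma-voom called 0. The median log2 fold change of the 11 rows was 0.13, the value of miR-100-3p (SE 0.48), which averaged 1.64 CPM in EN and 1.51 CPM in EC. MiR-125b-5p stood at 14801, 69.3 and 15409 CPM in EN, against 21881, 13068 and 85.8 CPM in EC. This row jumped within both groups, so its log2 fold change of -0.21 (SE 2.34) is not interpretable. From the let-7e cluster, miR-99b-5p stood at 0.47 (SE 0.13, adjusted p = 0.0861) and miR-99b-3p at 0.40 (SE 0.11, adjusted p = 0.0885) by edgeR, and miR-125a-5p at -0.23 (SE 0.11, adjusted p = 0.296). MiR-125b-1-3p, which is itself a less abundant arm, stood at -0.51 (SE 0.15, adjusted p = 0.0924) by the same test.

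Among the tested known rows outside the family, miR-879-5p, miR-188-5p and miR-30c-5p lay nearest to let-7i-3p in pattern over the 6 libraries. Predicted miRNAs were not searched. Their centred log2 levels differed from those of let-7i-3p by a root mean square of 0.46, 0.73 and 0.74. MiR-879-5p fell to 0.618 CPM in EN, against 6.01 CPM in EC, and miR-188-5p to 103 CPM in EN, against 209.7 CPM in EC, with adjusted p of 0.0167 and 0.0489 by edgeR. MiR-30c-5p averaged 94.5 CPM in EN and 199 CPM in EC and did not pass, with adjusted p = 0.0890 by edgeR. All 3 rows were chosen for likeness, so their lower values in EN follow from the choice.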

How the data were processed

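Small RNA from 6 PC12 libraries was analysed, 3 labelled EN and 3 labelled EC. The authors deposited whole-number read counts per mature miRNA and, beside each count, RPM values. HISAT2 2.0.5 and the rat build Rnor 6.0 are listed in the submitters' processing notes; the sources used here do not name the counting program, strand setting or treatment of reads with several matches. The authors' mean counts per group, held as signal values, were deposited too and not used. Each deposited RPM equals the count over 1 library total to within 0.0005, and these totals were used only as an alternative scaling.

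Counts were tested with edgeR 4.0.16 in R 4.3.3 (filterByExpr, TMM factors, quasi-likelihood test with robust dispersion), EN against EC, with Benjamini-Hochberg adjustment over all rows tested and a threshold of 0.05. The SE of a log2 fold change is its size over the square root of the F statistic. Arm ratios, log2((5p + 1)/(3p + 1)), were tested with limma 3.58.1, summing 3p rows of hairpins that share a 5p row. DESeq2 1.42.0 and limma-voom were alternatives. Shares were tested by exact permutation, two-sided. The edgeR and limma arm ratio tests were tested on simulated data. Sequences came from RefSeq (GRCr8), whose build differs from the authors', so no coordinates are given. Named rows were all members, their 5p and overlapping rows, cluster neighbours and 3 known rows. These 3 lay nearest in pattern to the member with the largest fold change. MiR-466b-4-3p was named after its value was seen. Members and lists were chosen with earlier results of these data known.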

Additional observations from a re-analysis of the deposited data

How the results depend on the processing

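Let-7i-3p kept its direction in every alternative, with log2 fold changes from -2.67 to -2.08 without 1 library and adjusted p from 0.0140 to 0.0678. The difference in its arm ratio was 1.95 to 2.54 and in its 3p share -1.12 to -0.85 percentage points without 1 library. In a fit with a replicate block, let-7i-3p stood at -2.38 (adjusted p = 0.109) and the arm ratio at 2.22 (adjusted p = 0.0514). Under the block, calls numbered 2 over all rows, 0 among the members and 1 among arm ratios, against 25, 1 and 6 without it. Libraries with the same number had deviations from their group means that correlated at 0.076, -0.052 and 0.0070. EC replicate 1 alone correlated best with its own number, and the main fits did not treat the numbers as pairs. With 3 libraries a group this check is weak. Replicate 2 of both groups shared the row that held the pair let-7a-1-3p and let-7c-2-3p, and the block lowered the SE of let-7c-2-3p from 2.52 to 0.25. Calls over all rows numbered 44 without a filter, 70 by DESeq2, 16 by limma-voom and 101 with library totals implied by RPM. With these totals 3 members were called, all lower, but every tested member was negative and the median of all rows was -0.30. Without 1 library there were 2 to 39 calls over all rows, 0 to 1 among the members and 0 to 14 among arm ratios.

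Signs turned only in members that did not pass. With implied totals, which moved the median of all rows to -0.30, the log2 fold changes became -0.28 (let-7a-2-3p), -0.22 (let-7c-1-3p), -0.080 (let-7c-2-3p), -0.205 (let-7e-3p), -0.10 (let-7f-2-3p) and -0.21 (summed pair). With miR-3596c added, let-7e-3p became -0.067, and with miR-3596a, whose row switched between libraries, added, let-7a-2-3p became 7.01 (adjusted p = 0.204). In EN, miR-3596c averaged 1032 CPM against 265 CPM for let-7e-3p, and miR-3596a 11144 CPM against 23.8 CPM for let-7a-2-3p. Alone, miR-3596c stood at -0.12 and miR-3596a at 7.45, so these sums follow the added rows and do not test the 3p arms. Without newly named rows, let-7a-1-3p became 0.051 and let-7f-1-3p 0.00046. Without 1 library the ranges were -5.38 to 5.51 (let-7a-1-3p), -0.46 to 0.81 (let-7c-2-3p), -0.019 to 0.21 (summed pair), -0.089 to 0.20 (let-7a-2-3p), -0.25 to 0.087 (let-7f-1-3p), -0.19 to 0.62 (let-7f-2-3p) and -0.69 to 0.20 (miR-98-3p). Arm ratio differences ranged from -1.86 to 1.26 (let-7c) and -0.38 to 0.011 (let-7e), and 3p share differences from -0.0012 to 8.1e-05 (let-7b), -0.075 to 1.68 (let-7e), -0.026 to 0.015 (miR-98) and -0.096 to 0.32 (let-7c) percentage points. Beyond the changed divisor, the added rows and the fewer libraries, the cause was not tested. Pooling the let-7a and let-7c hairpins was chosen after seeing the data. Depth limits let-7b-3p, let-7f-2-3p, let-7g-3p and miR-98-3p, at 48 counts or fewer.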
